A study of Glycine max with 22 samples.

Results

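The 150 probe sets described here, of 129 soybean genes, are those whose signal stood furthest above untreated leaves of the same age at all 3 ages sampled after bud removal began. Mature leaves of soybean (Glycine max) gave the RNA for 22 arrays, Affymetrix Soybean GeneChips, on which a probe set reports 1 transcript or a few closely related ones. Plants grew in chambers for 30 days, which gave the untreated starting group C0 (n = 4). Treated plants then lost every axillary and terminal bud each day for 15 days (D15, plant age 45 days), after which shoots grew back for 5 days (R20, age 50 days) or 15 days (R30, age 60 days), with n = 3 per group. Plants left whole and kept beside them were sampled on the same days as C15, C20 and C30, again with n = 3 per group.

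The members were chosen by these very differences. A candidate was a soybean probe set with 1 gene symbol and a signal over 22 on at least 3 arrays, and 7411 of 37593 soybean probe sets met this. Symbols that begin with VSP, LOX, AOC, KTI, GASA, GST, NAC, WRKY, bZIP or MYB had been taken out, with 4 single genes. Signal is the deposited intensity of a probe set, already scaled to a common mean per array. Each candidate was ranked by the smallest of the 3 differences D15 minus C15, R20 minus C20 and R30 minus C30 between group means of log2(signal + 1), and the first 150 are the members. Their same-age differences are therefore given as values with no test. Most members carry only a locus symbol, and 43 probe sets of 34 genes have a name that tells something of the product.

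Mature leaves make sugars and amino acids and export them to growing buds and shoots, and soybean leaves that lose these importers are known to fill with vegetative storage proteins. Several branches of specialised metabolism are represented among the members. Soyasaponins are triterpene glycosides: the cyclisation of oxidosqualene gives beta-amyrin, P450 enzymes oxidise it and glycosyltransferases add sugars. Flavonoids and isoflavonoids start from phenylpropanoid precursors through chalcone synthase, chalcone reductase and chalcone isomerase. Expansins and xyloglucan endotransglucosylases loosen and remodel the cell wall.

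Several arrays stood apart from their group, and this bears on every value below. The mean log2 signal over all members was 8.33 on C15 replicate 1 but 5.69 and 5.53 on the other C15 arrays. That array exceeded both of them in 127 of 150 members, lay a median 70.1% of the way to D15, and exceeded the lowest D15 array in 38 members. Among the C0 arrays the members' mean ran from 8.57 on replicate 1 to 6.09 on replicate 4, with 8.19 and 7.49 between. R20 replicate 3 had a median soybean signal of 38.2 against 57.1 to 81.3 elsewhere, and a ratio of 3' to 5' actin signal of 136 against 2.29 to 8.37, a sign of degraded or incompletely copied RNA. The spiked controls BioC and BioB stood at a ratio of 2.39 to 2.89 on all C20 and R20 arrays and of 0.948 to 1.20 on all others. The arrays of R20 and their controls share that ratio, while R20 set beside D15 or R30 does not. Of 12 probe sets of leaf markers (CAB3, a chlorophyll a/b binding protein, RCA genes of Rubisco activase and 1 probe set with several symbols) 11 were above the floor on all 22 arrays, and the other, of CAB3, on 9. The CAB3 probe set with the highest median signal ran from 2319 to 15897. Its mean was 4509 in C20 against 13345 in R20, and between 8903 (C30) and 13752.5 (C0) in the other groups. The other bright CAB3 probe sets were also lowest in C20, with means of 3996 and 2867, while the dim ones were not. All RCA14 probe sets and that of RCAALPHA also had their lowest group mean in C20, at 1905, 972, 2099 and 1012, with R20 next lowest. Those of RCA11, RCABETA and the probe set with several symbols did not. C20 leaves thus differed in several leaf markers, and the cause was not tested. Of 14 probe sets of seed storage proteins 9 were not above the floor on any array and none was on more than 4. The floor of an array is the 95th percentile of its oomycete and nematode probe sets and lay between 11.8 and 22.1.

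**Figure D1:**
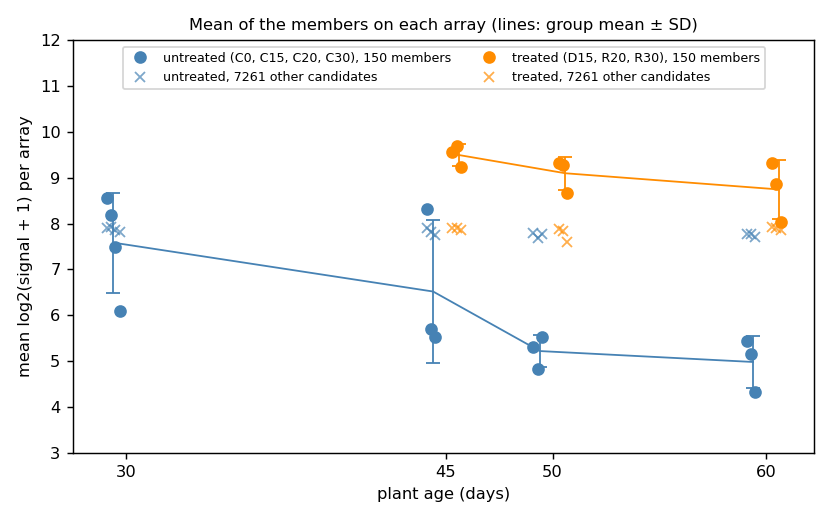
Mean log2(signal + 1) over the 150 members (circles) and over the 7261 other candidates (crosses) on each of the 22 arrays, against plant age in days, with lines through group means ± SD. The 9 treated arrays sit between 8.04 and 9.70 and, apart from C15 replicate 1 at 8.33, the arrays of C15, C20 and C30 between 4.33 and 5.69, while the crosses stay between 7.60 and 7.92.

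Over the members the mean log2 signal was 9.50 ± 0.24 in D15 (SD over arrays), 9.10 ± 0.36 in R20 and 8.75 ± 0.65 in R30. Untreated leaves stood at 6.52 ± 1.57 in C15, 5.22 ± 0.36 in C20 and 4.98 ± 0.58 in C30. The median difference over members was 2.72 at D15, 3.40 at R20 and 3.48 at R30, where all candidates had medians of 0.06, 0.05 and 0.10. Without C15 replicate 1 the median at D15 was 3.53, and without R20 replicate 3 the median at R20 was 3.70. The smallest of the 3 differences, which set the rank, was the one at D15 in 99 members, at R20 in 22 and at R30 in 29. The largest was at R20 in 70 members, at R30 in 66 and at D15 in 14. In bulk leaf RNA, more cells that make a transcript and more transcript per cell cannot be told apart.

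Every treated array exceeded every control array of its age in 109 members (72.7%) at D15, 141 (94.0%) at R20 and 125 (83.3%) at R30, and in 11.9%, 24.5% and 16.6% of all candidates. The members were ranked on these differences, so nothing is read from their excess. A limma fit over all 30645 soybean probe sets above the signal filter called 0.157% of them higher at D15, 7.21% at R20 and 1.97% at R30, at an adjusted p under 0.05, and 0.0914%, 12.3% and 0.441% lower. It called 18, 113 and 72 members higher, counts that the choice of members fixes and from which nothing is read. The median difference at R20 over all tested probe sets was -0.29 as deposited, -0.10 after quantile normalization and 0.19 after median centring, while the members' median was 3.40, 3.48 and 3.88. The members' mean signal over the 9 treated arrays, which the rule used, ran from 16.7 to 11276 with a median of 663. In 41 members at least 1 control group lay entirely at or below the floor, 6 at C15, 23 at C20 and 35 at C30. For these a fold change of a single gene at that age is given only as a lower bound. Ranks, medians and counts over members, here and below, use the computed values and so include signal at or below the floor. All 9 treated arrays were above the floor in 137 members.

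**Figure D2:**
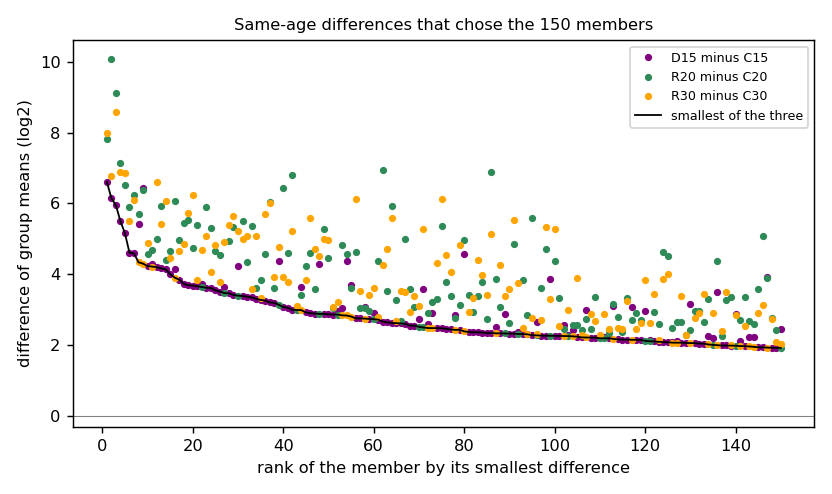
The 3 same-age differences of group mean log2(signal + 1) for each of the 150 members, against the member's rank, with the smallest of the 3 as a line. The line falls from 6.60 at the first rank to 1.92 at the last, and LOC547969 has 9.12 at R20 and 8.58 at R30. Points of the 41 members with a control group at or below the floor are drawn at their computed difference, which is not a measured size.

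Soyasaponin synthesis was represented by 4 genes with 7 probe sets, of the 5 genes with 8 probe sets that a list of this pathway holds. AMS1, beta-amyrin synthase, had signals of 2203, 2921 and 2440 in D15, 5398, 5659 and 2778 in R20 and 2671, 2754 and 2159 in R30. Its untreated signals were 1031, 159 and 571 in C15, 292, 154 and 720.2 in C20 and 73.2, 131 and 125 in C30, and the groups of no age overlapped. CYP93E1, the P450 that hydroxylates beta-amyrin at the 24 position, was read by 3 probe sets that all became members. Its first-ranked probe set gave 3291, 4830 and 2250 in D15, 3920, 3772 and 957 in R20 and 3655, 2971 and 2654 in R30, over 2233, 151 and 340.2 in C15, 97.7, 61.5 and 154 in C20 and 53.0, 141 and 10.1 in C30. On this probe set a control came close only at D15, and that was C15 replicate 1. On another member probe set of CYP93E1, C15 replicate 1 stood at 5674, above D15 replicate 1 at 5318.

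SGT2 and SGT3 encode glycosyltransferases that add the second and the third sugar of the soyasaponin sugar chain. SGT3 had signals of 3484, 4281 and 2832 in D15, 4004, 4007 and 2040 in R20 and 3490, 2604 and 2343 in R30. In C15 it gave 992, 153 and 285, in C20 170, 176 and 599, and in C30 79.1, 153 and 42.8. The differences of SGT3 were 3.31, 3.61 and 5.09, and those of the first probe set of SGT2 were 2.48, 3.30 and 4.31, in the order D15, R20, R30. In all 7 probe sets the mean of the untreated groups was lowest at C30. The remaining gene of the list, LOC100802222, had been kept out of the candidates by name. Having taken no part in the choice, it was tested, and rose in all 3 comparisons: by 2.58 ± 0.51 (SE) at D15 with a limma adjusted p of 0.0423, by 3.29 at R20 with 0.000794 and by 3.24 at R30 with 0.00156. It had been kept out with earlier results of these data known, so its values are not independent evidence.

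Flavonoid and isoflavonoid synthesis had 6 member genes with 7 probe sets, of 32 genes with 61. CHS8, a chalcone synthase gene, gave signals of 6103, 6274 and 4641 in D15, 5504, 6318 and 3522 in R20 and 5784, 4769 and 3690 in R30 on its brighter member probe set. Untreated leaves gave 2877, 1833 and 334 in C15, 1483, 592 and 896 in C20 and 4574, 1049 and 183 in C30. The 3 C30 arrays were far apart, and replicate 1 stood above the lowest R30 array. CHR5, chalcone reductase, which diverts the pathway to deoxy-isoflavonoids, had 2130, 2647 and 1486 in D15, 483, 822 and 2129 in R20 and 2864, 1999.7 and 1109 in R30, over control signals from 75.9 to 680.2. On R20 replicate 1 its signal was not far above the highest C20 signal, 351.

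The chalcone isomerase genes CHI1B1 and CHI2-A lie next to each other on chromosome 20 in the RefSeq annotation, with no gene between. CHI2-A had signals of 1077, 1735 and 1658 in D15, 351, 377 and 977 in R20 and 2737, 1276 and 1117 in R30, and control signals from 54.7 to 386. CHI1B1 was dim, with 143, 209 and 125 in D15, 31.7, 50.4 and 32.2 in R20 and 146, 90.5 and 75.9 in R30. IFR, an isoflavone reductase gene, gave 1488, 717 and 2102 in D15, 483, 448 and 1148 in R20 and 603, 455 and 275 in R30. Its control arrays ran from 0.852 in C30 replicate 3 to 729 in C15 replicate 2, so the groups overlapped at D15 and at R30. LOC547659, listed under the synonym IFR1, had differences of 2.73, 2.52 and 3.11.

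Of the 54 other probe sets of this list, 49 had a fitted difference above 0 at D15, 40 at R20 and 47 at R30. The fit called 1 higher at D15, 10 higher and 1 lower at R20, and 3 higher at R30, beside the shares of all probe sets given above. The call at D15 and all 3 at R30 were of further probe sets of the member gene CHI1B1. Those at R20 include further probe sets of the member genes CHI1B1, CHS8 and IFR, so these counts partly repeat the choice of members. At R20 both probe sets of the chalcone isomerase gene CHI4A rose, by 1.14 ± 0.28 and 1.52 ± 0.39 (SE), and 2 of 6 probe sets of the chalcone synthase gene CHS1, by 2.67 ± 0.84 and 3.30 ± 0.92. PAL2.1, which makes cinnamate from phenylalanine, was called on 1 of 3 probe sets, with 1.98 ± 0.68 beside -0.08 and -0.51. IFR2, of the isoflavone reductase family, fell on 1 of 3, by 2.65 with an SE of 0.84, beside -0.53 and -0.11. Medians over all 61 probe sets, 7 of them chosen for these differences, were 1.37, 1.06 and 1.24, beside -0.04, -0.29 and 0.05 over all tested.

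Cell wall genes supplied 4 members, of 11 genes with 21 probe sets: the expansin genes EXP2 and EXP4, the beta-expansin gene CIM1, named for its induction by cytokinin in soybean cells, and XTH1, a xyloglucan endotransglucosylase. EXP4 had signals of 1788, 2277 and 715 in D15, 1010, 627 and 509 in R20 and 1410, 738 and 238 in R30. Its controls were split: 2835, 11.3 and 13.5 in C15, 1.10, 2.47 and 195 in C20 and 15.1, 14.0 and 12.5 in C30. C15 replicate 1 thus stood above all 3 D15 arrays, while every C30 array was below every R30 array. CIM1 gave 525, 537 and 76.0 in D15, 212, 272 and 64.3 in R20 and 607, 201 and 30.1 in R30, over controls of 0.253 to 22.8. In R30 it was at least 9.08-fold higher, since no C30 array was above the floor. EXP2 was not above the floor on any C20 array, and only 2 of 3 R20 arrays were above it, so its bound there was at least 3.15-fold. XTH1 was dim throughout, with treated signals from 17.3 to 111. Of the 17 other probe sets none was called at D15, 2 were called higher at R20 and 2 at R30, and none lower. Over all probe sets 7.21% and 1.97% were called higher at R20 and R30, and nothing is read from these counts. Both calls at R20 were of PRP3, with 0.79 and 0.84, and at R30 PRP3 had 1 call, with 0.86. PRP2, a proline-rich cell wall protein gene, rose by 3.45 ± 0.90 (SE) at R30 on 1 probe set, and the other had 3.29 ± 0.89 and did not pass. Fitted differences were above 0 in 16 of the 17 at D15, 10 at R20 and 16 at R30. XET1 had -1.68, -0.96 and -0.61, and PAE1 had -0.61 and -0.80 at R20, none of them called.

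**Figure D3:**
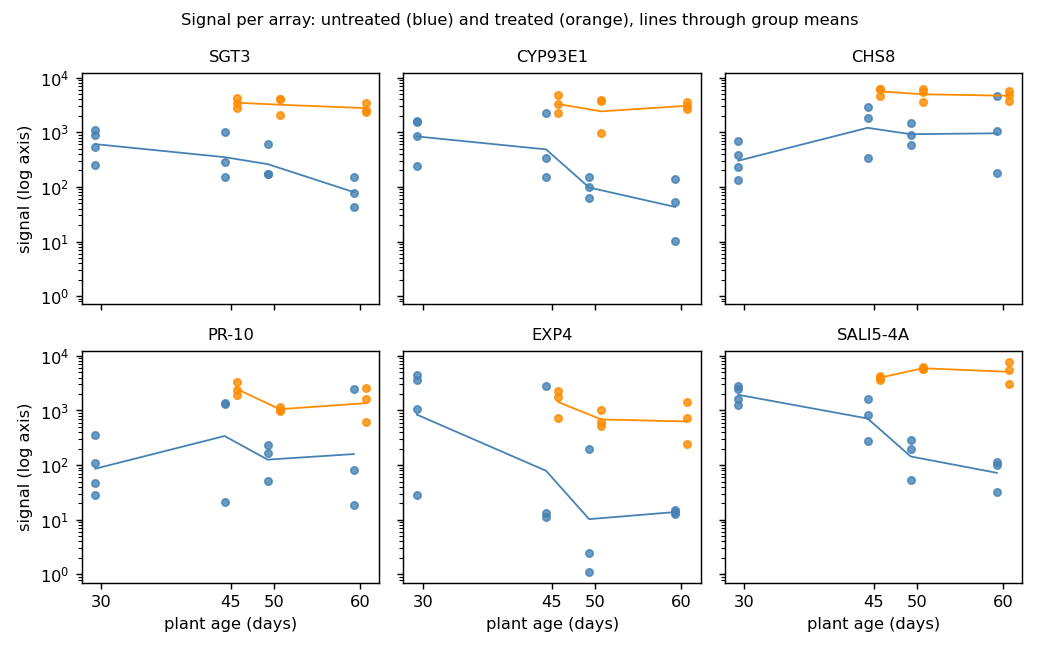
Signal per array on a log axis against plant age in days for 6 members (first-ranked probe set of each gene), with untreated arrays in blue and treated arrays in orange and lines through the group means of log2(signal + 1). SGT3, CYP93E1 and SALI5-4A have a lower mean at each later untreated age, CHS8 and PR-10 start lower than the later controls, and EXP4 has 1 C15 array at 2835, above the D15 arrays.

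Pathogenesis-related proteins accumulate in plants under attack or stress, and 3 of 7 listed genes were members. PR-10, also known as SAM22, had signals of 2404, 1961 and 3260 in D15, 973, 1170 and 1034 in R20 and 2540, 1604 and 616 in R30 on its first-ranked probe set. In C15 it gave 1312, 1361 and 21.3, in C20 230.0, 168 and 51.3, and in C30 2496, 82.9 and 18.7. The groups overlapped only at 60 days, where C30 replicate 1 was nearly as bright as the brightest R30 array. PR1-7, of the PR-1 family, showed the same split, with 3490, 263 and 121 in C30 against 2838, 2711 and 2276 in R30. OLPb, an osmotin-like protein gene, had 1428, 1019.5 and 1166 in D15 but 251, 299.7 and 349 in R20. C30 replicate 1 was the brightest C30 array in PR-10, PR1-7, OLPb, CHS8, CHR5 and IFR. Of the 10 other probe sets of this list 1 was called higher at R20, a second probe set of PR1-7 with 3.02 ± 0.91 (SE), and none at D15 or R30. Over all probe sets 7.21% were called higher at R20.

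BBI-1, a Bowman-Birk inhibitor of trypsin and chymotrypsin, was among the last members, with differences of 1.97, 3.37 and 2.54. Its treated signals were 41.4, 112 and 111 in D15, 179, 241 and 557 in R20 and 649.9, 669 and 344 in R30. Its untreated signals were 2.05, 103 and 27.0 in C15, 32.2, 6.36 and 89.2 in C20 and 262, 42.5 and 65.4 in C30, so both series had their highest mean at the last age. The Kunitz inhibitors KTI-2 and KTI-3 had been left out of the candidates by the rule. Of the other 5 probe sets of the inhibitor list, 4 were called higher at R20 and 3 at R30, beside 7.21% and 1.97% of all probe sets. These were of KTI-2 and KTI-3 and, at R20, also a second probe set of BBI-1. CYSTATIN was not called at any age, and nothing is read from these counts.

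Cytochrome P450 genes gave 3 members of 22: CYP93E1, CYP72A67 and CYP76O2. Both probe sets of CYP76O2 were members and behaved alike. The first gave 1299, 1367 and 1192 in D15, 1159, 747 and 1159.6 in R20 and 156, 120.4 and 391 in R30. Control signals were 554, 47.3 and 131 in C15, 5.63, 20.2 and 10.1 in C20 and 22.7, 3.68 and 17.8 in C30. CYP76O2 was thus lower in R30 than in D15 in every array, a change tested below. The first probe set of CYP72A67 had signals of 3995 to 6298 on the 9 treated arrays, and its second probe set lay just outside the set. Of the 33 other P450 probe sets, 3 were called higher and 1 lower at R20 and 1 higher at R30, the second probe set of CYP72A67. Nothing is read from these small counts beside 7.21% higher and 12.3% lower at R20 and 1.97% higher at R30 over all probe sets. CYP82C1 rose by 2.12 ± 0.44 (SE) at R20, and 1 of 2 probe sets of CYP83D1 fell by 1.68 with an SE of 0.49, the other having -0.75.

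Single genes of other kinds were among the clearest members. SALI5-4A, a gene first found as induced by aluminium in soybean roots, had signals of 3976, 3645 and 4309 in D15, 5733, 5754 and 6324 in R20 and 7836, 5622 and 3005 in R30. Untreated leaves gave 813, 279 and 1597 in C15, 53.4, 194 and 286 in C20 and 101, 113 and 32.5 in C30, with no overlap at any age. Further probe sets of SALI5-4A, outside the members, had smallest differences of 1.84 and 0.99, both at D15. SEOS, of the sieve element occlusion family whose proteins plug phloem sieve tubes of legumes, gave 7061, 10866 and 14091 in D15, 9543, 11583 and 18340 in R20 and 9574, 10286 and 10138 in R30. Its controls were 5084, 514 and 1704 in C15, 649.6, 1115 and 1874 in C20 and 410.0, 612 and 222 in C30. Of 6 other probe sets of the family 2 were called higher at R20, beside 7.21% of all probe sets, and none at the other ages. The 2 were of SEOA and SEOC. Fitted differences were above 0 in 5 of the 6 at D15, 4 at R20 and 4 at R30. Both probe sets of SEOE were below 0 at R20, with -1.27 and -1.98, and at R30, with -0.96 and -0.95, and were not called.

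PAP25, a purple acid phosphatase that releases phosphate from organic esters, was read by 3 probe sets, all of them members. The first gave 1716, 1834 and 2700.4 in D15, 2268, 2464 and 2899 in R20 and 5132, 4177 and 2761 in R30, over 404, 178 and 901 in C15, 246, 181 and 1226 in C20 and 288, 424 and 408 in C30. On the second, C20 replicate 3 stood at 2009, above R20 replicate 3 at 1737. Among the other 9 probe sets of phosphatases and phosphate transporters, 1 was called higher at R20, of PAP3 with 1.65 ± 0.39 (SE), where the other probe set of PAP3 had 0.86. HSP17.5-E, a small heat shock protein, PIP2-9, a plasma membrane aquaporin, SCAM-4, a calmodulin, SPK-1, a protein kinase, and FAD3B, a desaturase that makes linolenic acid, were each the only member gene of their family. Their smallest differences lay between 1.92 and 2.16, near the end of the ranking. Of the other probe sets of these families, 7 of 30 of aquaporins were called higher and 1 lower at R20. Of calmodulins 4 of 11, of desaturases 4 of 10 and of heat shock proteins 2 of 15 were higher there, and none of the 4 of SPK kinases was called. The 2 heat shock probe sets include another of HSP17.5-E itself. At the other ages 2 desaturase probe sets were called at R30 and 1 heat shock probe set at D15. R20 was also the age with the most calls over all probe sets, 7.21% higher and 12.3% lower.

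AG1 stood second in rank. Its signals were 6642, 6154 and 5199 in R20 and 11.5, 4.24 and 1.55 in C20, all of the latter below the floor, so R20 was at least 446-fold higher. In D15 it gave 3574, 3512 and 4145 against 894, 6.54 and 20.6 in C15, and in R30 1342, 1824 and 1558 against 5.67, 27.9 and 14.4 in C30. LOC732576, first in rank, had 6129, 6294 and 3711 in D15, 3958, 4238 and 859.6 in R20 and 4909, 3536 and 1784 in R30. It was at least 182-fold higher in R20 and at least 183-fold higher in R30, since no C20 or C30 array was above the floor. LOC547969 gave 8449, 10204 and 8364 in D15, with 3068, 43.1 and 21.9 in C15. GH, among the brightest members, had treated signals from 5784 to 13766. Its untreated signals were 10089, 366 and 1183 in C15, 247, 154 and 141 in C20 and 80.3, 202 and 227 in C30.

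A probe set's name is not always certain, and 49 members (32.7%) are of a probe set type that can read related transcripts, against 24.3% of candidates. Probe sets of a gene did not always behave alike either. Of the 129 genes, 18 had several member probe sets, among them LOC100305905, PAP25 and CYP93E1 with 3 each. In 34 genes there were 61 further candidate probe sets outside the members: 48 of them had all 3 differences above 0 and 29 had all 3 above 1, with a median smallest difference of 0.99, while 32.5% of all candidates had all 3 above 0. LOC100806382, near the top of the ranking, had 3 other probe sets with smallest differences of -3.36, -4.08 and -1.59, and LOC547605 had 7 others between -3.18 and 0.24. For these 2 genes the member probe set and the rest disagreed. Of the soybean probe sets above the filter, 22523 have no symbol, and 228 of those had a smallest difference at or above that of the last member.

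Some member genes are neighbours in the RefSeq annotation (Glycine_max_v4.0). Directly adjacent pairs, besides the chalcone isomerases, were LOC100306647 and DRR1 on chromosome 11, LOC100500033 and LOC100500518 on 17, and LOC100101844 and PR-10 on 7, and LOC100527731 lies 1 gene further along from PR-10. On chromosome 17 the 3 genes H4, LOC100791036 and LOC100527097 follow one another. In D15 the members H4 and LOC100791036 had signals of 391, 497 and 337 and of 4416, 5699.7 and 5758 (first probe set). Neighbouring genes of 1 family can share probe sequence, and whether their signals are independent was not tested.

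The cut at rank 150 fell in a continuous series. Just inside it lay LOC100812226, SCAM-4 (second probe set) and LOC547660, each with a smallest difference of 1.92, and just outside LOC100500487 with 1.92, LOC100305808 with 1.92 and the second probe set of CYP72A67 with 1.91. Under the same rule with median centring 141 of the 150 members were chosen again, with quantile normalization 144, with group medians 111 and with 1 probe set per symbol 114. Leaving out single arrays kept 121 (without C15 replicate 3) to 147, and 70 members were kept under each of the 18 such settings.

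Leaves at the start of the time course, which took no part in the choice, show where the members stood before bud removal. C0 lay above all 3 later control means in 116 members (77.3%) and below all 3 in 13 (8.67%), against 34.5% and 32.6% of candidates. C0 lay below all 3 treated means in 106 members (70.7%) and above all 3 in 5, where 28.3% of candidates were below. The median change from C0 was -1.13 in C15, -2.19 in C20 and -2.61 in C30, and 1.88 in D15, 1.59 in R20 and 1.36 in R30. Control means fell at each step from C0 through C15 and C20 to C30 in 65 members (43.3%), against 8.74% of candidates. Without C0 replicate 4 the 6 medians were -1.63, -2.68, -3.08, 1.33, 1.08 and 1.01, and C0 lay above all treated means in 22 members. Without C15 replicate 1 the median in C15 was -1.89, C0 lay above all controls in 126 members and the stepwise fall held in 50 (33.3%), against 6.65% of the other candidates. Since the other side of each of these differences chose the members, they are a description and carry no test.

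**Figure D4:**
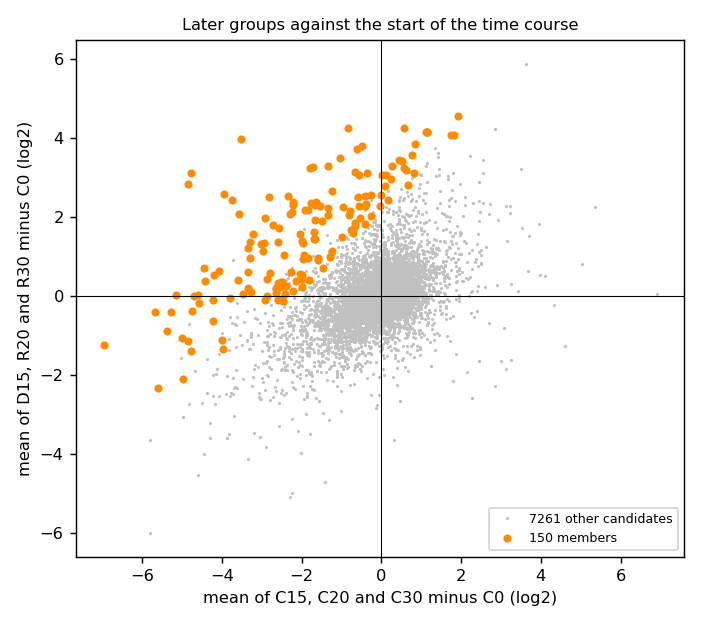
Mean of D15, R20 and R30 minus C0 against mean of C15, C20 and C30 minus C0, both in log2, for the 150 members (orange) and the 7261 other candidates (grey). In 107 members (71.3%) the treated mean lies above C0 and the control mean below it (upper left), against 17.7% of the other candidates, 21 members lie above C0 in both and 22 below in both.

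The position of C0 was not the same in the member probe sets of each list, while the other probe sets of the lists were not examined for it. All 7 soyasaponin members and all 6 P450 members, which share those of CYP93E1, had C0 above every later control mean, beside 77.3% of all members. AMS1 was at 1699, 1338, 790.0 and 615 in C0, below every treated array and overlapping C15 and C20. In none of the 7 flavonoid members did C0 lie above every later control mean. It lay below all of them in 5, beside 8.67% of all members, and within their range in the others. CHS8 gave 136, 387, 694 and 229 in C0, and CHR5 78.9, 167, 278 and 210.4. BBI-1 was at 9.38, 2.70, 10 and 21.3 in C0, of which only replicate 4 was above its floor. PR-10 was likewise low, at 46.5, 110.0, 361 and 28.9. EN2 had 102, 212, 331 and 579.5 in C0 and 484, 537 and 687 in C15, while D15 gave 2484, 5061 and 2865.

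At the other end, LOC100816355 and LOC100807723 had C0 means above those of R20 and R30, and C0 arrays above all of their treated arrays. LOC100816355, listed under the synonym GmCUPIN16.1, gave 5054, 2756, 2713 and 15.1 in C0, 1649, 1269.9 and 197 in D15, 142, 66.7 and 215 in R20 and 104, 122 and 50.5 in R30. LOC100807723 gave 5927, 3234, 657 and 54.2 in C0, 1467, 1405 and 652 in D15 and 42.0, 51.2 and 64.3 in R30. For both, C15 replicate 1 was again bright, at 3433 and 2114, against 26.5 and 18.0, and 3.08 and 44.2, on the other C15 arrays. The C0 and D15 means were close: 9.79 and 9.54 in log2 for LOC100816355, and 9.84 and 10.11 for LOC100807723. PIP2-9, EXP4 and DD2/63 also had C0 arrays above all of their treated arrays. In DD2/63 these were 6139 and 4462 in C0 against a highest treated signal of 2708.

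Change between plant ages of 45 and 60 days was tested on the treated and on the untreated leaves. Neither contrast entered the rule, but the rule ranked members on the same group means of D15, C15, R30 and C30. The difference at D15 was the smallest, and so set the rank, in 99 members. The choice can thus itself move both contrasts, and nothing about the members as a set is read from their values and counts. The labels do not say how the samples of a group relate to separate plants, so a p-value reflects only how far these samples spread, which may be partly technical. In R30 against D15 no member was called, and neither was any of the 30645 probe sets (0% higher and 0% lower). At an unadjusted p under 0.05 limma had 1 member higher and 11 lower, against 2.98% and 2.84% of all tested. Fitted values were lower in 117 of 150 members, with a median of -0.57, where 43.1% of all tested were lower with a median of 0.08. The smallest limma adjusted p was 0.52, of CYP76O2, whose 2 probe sets had -2.72 ± 0.76 and -2.86 ± 0.83 (SE). BBI-1, the only higher member at that unadjusted level, had 2.71 ± 1.05.

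With the spread taken from the 6 arrays of D15 and R30 alone, the same test called 0.519% of all probe sets higher and 0.594% lower, and among members 1 higher and 15 lower. The higher one was BBI-1, with an adjusted p of 0.033. Among those that fell were EXP2 by 3.15, both probe sets of CYP76O2, AG1 by 1.26, LOC100807723 by 4.39 and LOC547605 by 3.95. Whether a call is made here thus depends on the arrays that set the spread, and the pooled spread includes C0 and C15, whose arrays stood apart. Soyasaponin probe sets had a median of -0.08 in this contrast, flavonoid probe sets -0.27, and the 3 probe sets of PAP25 0.93, 0.94 and 1.0, with SEs of 0.60 to 0.61.

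In C30 against C15 again no member was called, nor any other probe set (0% higher and 0% lower). At an unadjusted p under 0.05 none was higher and 48 were lower, against 1.63% and 3.54% of all tested. Fitted values were lower in 137 members with a median of -1.60, where 51.04% of all tested were lower with a median of -0.01. SALI5-4A had the smallest limma adjusted p, 0.123, with -3.29 ± 0.62 (SE). GH had -3.40 ± 0.76, and the 3 probe sets of CYP93E1 had -3.47 ± 0.93, -3.02 ± 0.85 and -3.0 ± 0.75, none of them passing. The median was -2.11 over the soyasaponin probe sets and -0.33 over the flavonoid ones. Without C15 replicate 1 the members' median was -0.61, close to that of R30 against D15, where the other candidates had a median of -0.03. The medians of the 2 lists were then -1.49 and 0.18, SALI5-4A had -3.19 and GH -2.08, and the probe sets of CYP93E1 -2.37, -1.98 and -2.08. C30 lay further below C15 than R30 below D15 in 117 members (78.0%), against 53.8% of the other candidates, and this difference between the contrasts, made of the same groups as the rule, was not tested. It rested on C15 replicate 1: without that array C30 lay further below in 66 members (44.0%), against 51.2% of the other candidates.

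**Figure D5:**
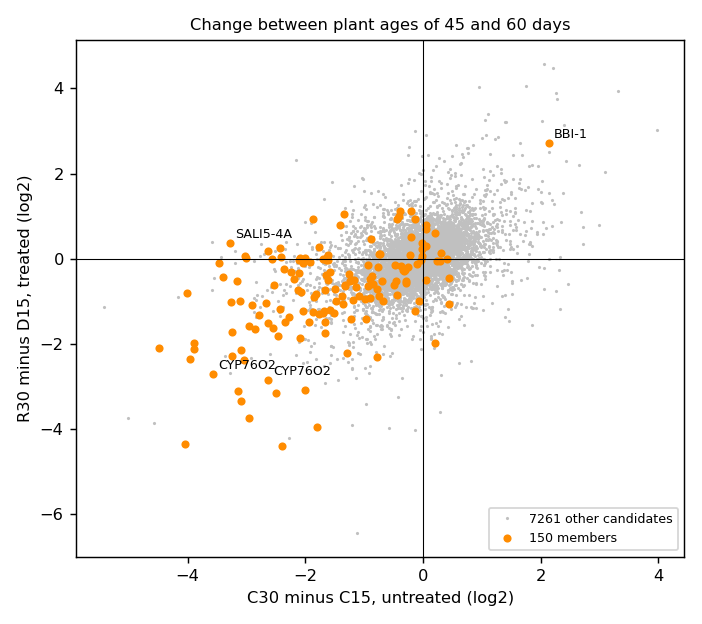
R30 minus D15 in treated leaves against C30 minus C15 in untreated leaves, in log2, for the 150 members (orange) and the 7261 other candidates (grey), with 3 genes named. In 110 members (73.3%) both changes are below 0, against 34.2% of the other candidates, and BBI-1 is the member furthest up and right. Without C15 replicate 1 both are below 0 in 85 members (56.7%), against 28.8%.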

How the data were processed

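Total RNA of 22 mature leaf samples was hybridised to Affymetrix Soybean GeneChips after one-cycle labelling, per the labels' protocols. Each of the 61170 probe sets has 1 deposited intensity per array, not on a log scale. The deposited intensities had been scaled, since each array has a 2% trimmed mean of 125.009 to 125.015; which software summarised them was not found in the labels or file headers. The number of arrays limits the precision.

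Groups and replicate numbers follow the sample labels. The members, the lists and the tests were chosen with earlier results of these data known. Contrasts were fitted with limma 3.58.1 in R 4.3.3 on log2(signal + 1), with 1 coefficient per group over all 22 arrays and a variance trend. The 30645 soybean probe sets with a signal over 22 on at least 3 arrays were tested, and p-values were adjusted by the Benjamini-Hochberg method. Without-array values of C15 replicate 1 beside the changes with age were added after seeing the data. The code was first tested on simulated data. Where no control array exceeded its floor, a bound is given: the treated mean log2 value against the mean of, per control array, the floor or the signal itself, whichever is higher.

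Of the soybean probe sets 8677 have 1 symbol, 370 several and 28546 none. All 129 member genes were found in the RefSeq table (Glycine_max_v4.0), used for names, synonyms and gene order; no build is tied to the array here and no coordinates are printed. Lists had been planned by words of gene descriptions, which that table lacks, so 13 lists were written as symbols after the files had been seen. Named members were the 20 of highest rank with an informative symbol, the 10 first of any name, up to 3 per list, those at either side of the cut, the 5 highest and 5 lowest in C0 relative to treatment, and genes with several member probe sets. AMS1, CHR5, CHI2-A, XTH1, OLPb, CYP72A67 and the non-member genes given were named after their values were seen. No 2 arrays correlated above 0.967.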

Additional observations from a re-analysis of the deposited data

Results flagged for a closer look

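Among the 4 C0 arrays, replicate 4 stood far below the others in some members. The gap to the next array took a share of 0.903 of the range of the log2 signal in LOC732576 (439, 606, 636 and 13.0), 0.892 in LOC100816355 (5054, 2756, 2713 and 15.1) and 0.848 in LOC100306670 (1263, 745, 875 and 38.3), each over Dixon's 95% critical value for 4 samples. Over all 150 members 6 exceeded that value, 5 of them with C0 replicate 4 lowest, and chance gives about 1 in 20. The ratio for the members' mean was 0.563, below the critical value. What set replicate 4 apart was not tested.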

How the results depend on the processing

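No member was called in R30 against D15 or in C30 against C15 as deposited, nor under median centring, quantile normalization, a pseudocount of 16, no filter, a filter on 6 arrays, no variance trend or with the replicate number as a block (0 members higher and 0 lower in both contrasts). The numbers were not taken to pair the samples: deviations from group means correlated at a median of 0.073 between same-numbered samples (-0.355 to 0.506) and -0.033 between others, and 11 of 22 arrays had a closest array of another group with the same number. In R30 against D15, 1 member was called higher and 15 lower with the 6 arrays of the 2 groups alone, beside 0.519% and 0.594% of all probe sets. That fit sets the spread from fewer arrays. Without C0 replicate 4, C15 replicate 1 and R20 replicate 3 there were 4 lower: LOC100807723, LOC100815185, LOC100500579 and CYP76O2. Of all 30221 probe sets tested there, 48 were called higher and 50 lower. Leaving out single arrays of the 2 groups compared gave 0 member calls in R30 against D15 and 0 to 4 lower in C30 against C15. Without C15 replicate 2 there were 4 (GH, CYP76O2, SALI5-4A and LOC100802459), where 1 of 30578 probe sets was called higher and 24 lower. Without C30 replicate 2 there was 1 (LOC100500325), where 1 of 30492 was called higher and 15 lower. The cause was not tested. Arrays of other groups were not left out singly in these 2 contrasts.

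The rule chose 111 to 150 of the members again under other settings, the fewest with group medians, 123 with a pseudocount of 16 and 124 without the 3 arrays named above. For the 75 named member probe sets the smallest difference was recomputed 1921 times: 1905 values moved by less than the within-group SD and 16 by more, none fell to 0 or below, and the lowest was 0.59. Signal over background limits the 41 members whose control group lay at or below the floor.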
